A study of Mus musculus with 12 samples.

Results

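The genes described here repair broken DNA by homologous recombination or remove R-loops, and their RNA was measured in U2OS cells, a human osteosarcoma line, after knockdown of the splicing factor SRSF1 or overexpression of the long non-coding RNA LINC01134. The 36 genes were listed by name for their known function, by a rule that uses no measured value but that was set with earlier results of these data known, and all 36 were found by full name among the 58735 genes of the table. Each of the 36 had reads in every library. A filter of a mean of at least 0.5 FPKM over the libraries was passed by 34 of the 36. FPKM is fragments per kilobase of gene length, scaled by a factor for each library. The other 2, RAD50 and RNASEH2A, did not pass and were not tested. Of the 12 RNA-Seq libraries, 3 came from blank cells, 3 from cells given the siRNA siSRSF1-2, 3 from cells given siSRSF1-3, a second siRNA to SRSF1, and 3 from cells overexpressing LINC01134 (OE-LINC01134). All groups were the same tumor line, with no other allele or agent named in the labels. No library with a control siRNA or an empty vector was among the samples, so the effect of the transfection or vector cannot be told apart from that of the siRNA or the RNA. The labels do not say whether replicates came from separate cultures, so p-values measure only the spread between these libraries.

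Homologous recombination repairs a double-strand break by copying an intact sister DNA molecule. The break ends are first trimmed to single strands, then the BRCA proteins and their partners prepare them for pairing with the sister molecule, while checkpoint kinases hold the cell cycle and the Fanconi anaemia proteins unhook cross-linked strands. An R-loop is an RNA strand paired with its template DNA that leaves the other DNA strand free. RNase H enzymes cut the RNA of such hybrids and topoisomerase I relieves the supercoiling behind the polymerase that favors them. SRSF1 coats nascent RNA during splicing, and its loss is known in other cells to raise R-loops and DNA breaks. Many of these genes are more strongly transcribed in S and G2 phase, and in bulk RNA fewer cells in such a phase and less RNA per cell cannot be told apart.

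SRSF1 itself was at 35.9, 19.8 and 20.5 FPKM in the blank libraries, at 7.09, 7.46 and 7.41 with siSRSF1-2 and at 3.33, 6.81 and 7.90 with siSRSF1-3. Both siRNA groups lay wholly below the blank group, with log2 fold changes of -1.72 ± 0.23 (SE; adjusted p = 0.00500) and -2.09 ± 0.38 (adjusted p = 0.0518) in limma. An exact two-sided permutation test gave p = 0.1 for each, the smallest p that 3 against 3 libraries allow. LINC01134 was between 0.497 and 1.11 FPKM in the 9 libraries without overexpression and at 891, 1279 and 878 FPKM with it. Some libraries stood apart from their group. By the Pearson correlation of log2 values across all tested genes, which are not independent replicates, siSRSF1-3 replicate 3 was closer to the siSRSF1-2 libraries (r from 0.958 to 0.960) than to siSRSF1-3 replicates 1 and 2 (r of 0.861 and 0.922). Blank replicate 1 and OE-LINC01134 replicate 2 were closest to each other (r = 0.952). The siSRSF1-3 replicates 1 and 2 were also unlike the libraries of other groups, with r of 0.792 to 0.842 for replicate 1 and 0.853 to 0.903 for replicate 2 outside their group. Their FPKM summed to 611084 and 410612, beside 281051 to 324607 in the other 10 libraries, of which siSRSF1-3 replicate 3 had 302504. Calls are given with and without siSRSF1-3 replicate 3, blank replicate 1 and OE-LINC01134 replicate 2 where leaving them out changed them. Each library had from 26237763 to 32954539 reads on genes. COL1A2, CDKN2A and PTPRC were at or near 0 in every library, VIM, SPARC and COL1A1 were expressed, and so were the epithelial keratins KRT8 (10.6 to 58.4 FPKM) and KRT18 (42.8 to 163 FPKM).

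At baseline the levels of the genes spanned a wide range on the per-length scale. TOP1, which encodes topoisomerase I, was the highest in blank cells at 32.1 ± 3.70 FPKM (SD, n = 3). RAD51AP1 (17.7 ± 2.13), RAD51C (16.0 ± 0.575), FANCG (15.2 ± 3.34) and FANCI (14.9 ± 2.86) followed, and these neighbours did not differ beyond their spread. BRCA1 was at 6.90 ± 0.101 FPKM and BRCA2 at 2.43 ± 0.137. The lowest were RAD50, at 0.452 ± 0.0588 FPKM, and RNASEH2A, at 0.406 ± 0.138. RAD50 had 90 to 214 reads per library and RNASEH2A 20 to 71, although MRE11 and NBN, which bind RAD50 in one complex, were between 2.60 and 12.8 FPKM. Both genes, RAD51D and the targeted gene SRSF1 lie where another gene of the same strand covers more than 80% of their span. Those other genes were listed at no more than 0.0109 FPKM on average, and the counting rule for shared reads is not given in the sources used here. RNASEH1 varied least over the 12 libraries, with a highest value 1.54 times the lowest, and RNASEH2A the most, at 5.65 times. Among the tested genes the widest range was that of BARD1, at 3.73 times.

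**Figure D1:**
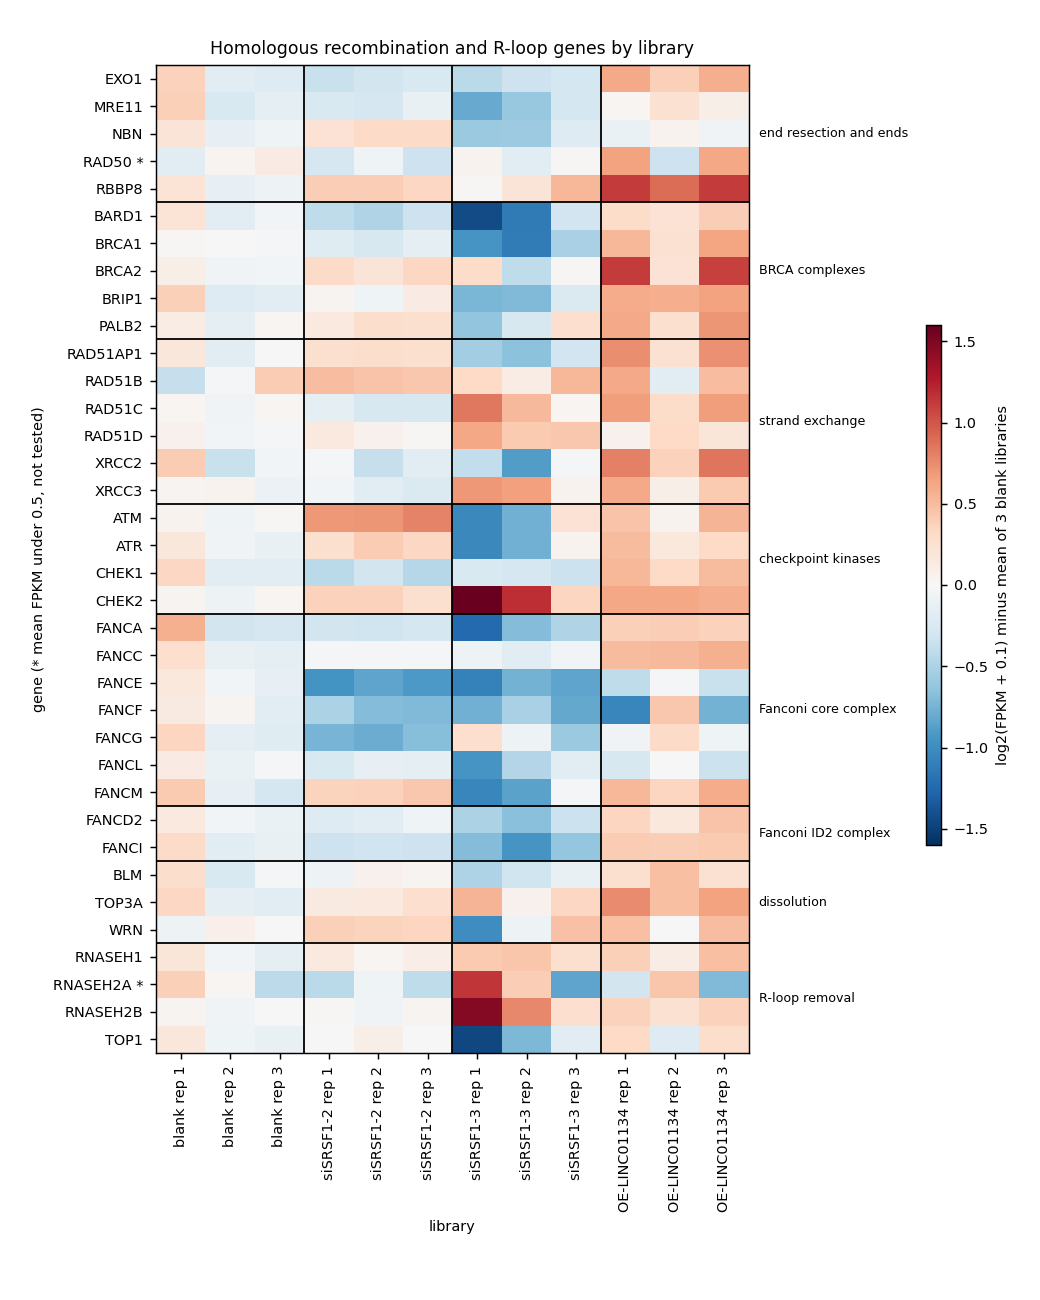
Each cell is log2(FPKM + 0.1) of 1 gene (rows, grouped by role) in 1 library (columns) minus the mean of the 3 blank libraries, with red higher and blue lower. The siSRSF1-3 columns 1 and 2 are mostly blue with CHEK2 and RNASEH2B in red, the siSRSF1-2 columns hold FANCE, FANCF and FANCG in blue and ATM in red, and the OE-LINC01134 columns are mostly red, with RBBP8 deep red in all 3.

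The first comparison asked how the repair genes stood after siSRSF1-2. They split, with 18 of the 34 tested genes higher than in blank cells and 16 lower (51.7% and 48.3% of all tested genes), and a median log2 fold change of 0.01, beside 0.02 over all 17538 tested genes. None passed the threshold in limma, an adjusted p under 0.05 together with a log2 fold change above 1 or below -1, where 2.22% of all tested genes were called higher and 2.73% lower. The 3 siSRSF1-2 libraries were close to one another. At an adjusted p under 0.05 with any fold change, ATM, CHEK2, WRN and RBBP8 were higher (4 of 34, against 14% of all tested genes) and the Fanconi core genes FANCE, FANCF and FANCG were lower (3 of 34, against 12.8%). Both shares were below those of all genes. Unadjusted p-values were under 0.05 for 8 higher genes (20.6% of all genes) and for 8 lower ones (19.7%), and voom on the recovered reads called none past the threshold. Over the alternatives with a test the adjusted p of FANCE stayed at or below 0.0257, while the highest value was 0.149 for ATM, 0.0841 for FANCG, 0.182 for RBBP8, 0.250 for FANCF and 0.452 for CHEK2 (WRN was not followed). The groups did not overlap for 10 genes that were higher and 10 that were lower, beside 25.3% and 24.2% of all genes.

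With siSRSF1-3, 25 of the 34 genes were lower than in blank cells and 9 higher (50.7% and 49.3% of all tested genes), with a median log2 fold change of -0.39 beside -0.01 over all tested genes. The lowest were BARD1 (-0.95), FANCE (-0.90) and BRCA1 (-0.86), and the highest were CHEK2 (1.04), RNASEH2B (0.83) and RAD51D (0.49). No gene passed the threshold in limma (0.331% of all genes were called higher and 0.929% lower), nor an adjusted p under 0.05 at any fold (0.342% higher and 0.935% lower), nor the threshold with voom. An unadjusted p under 0.05 was reached by 3 higher and 9 lower genes (15.2% and 13.6% of all genes). With a log2 fold change beyond 1 as well, 1 higher gene, CHEK2, and 0 lower ones remained (7.57% and 7.24%), and one fit over all 4 groups also called CHEK2 higher and 0 genes lower (7.1% and 6.71%). The groups did not overlap for 15 lower genes, 44.1% of the 34, beside 18% of all tested genes, and for 5 higher genes, beside 19.2%. The calls depended on which libraries were used. Leaving out siSRSF1-3 replicate 2, blank replicate 2 or blank replicate 3 gave 0 calls among all tested genes. Without siSRSF1-3 replicate 3, BRCA1, BARD1 and TOP1 were called lower (11.4% of all genes were) and CHEK2 and RNASEH2B higher (12.5%), and with blank replicate 1 also left out, BRCA1 and BARD1 were called lower (9.8%) and CHEK2 higher (11.3%).

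The medians of that comparison depended on the scaling and on gene length. With the FPKM of every library made to add up to one common total, the median of all genes moved to -0.43 and that of the repair genes to -0.83, and scaled to each library's own reads they were -0.26 and -0.65. Relative to the median of all genes the repair genes stood at -0.38 in the deposited scaling and at -0.40 and -0.39 in the others, and 25 of 34 lay below it each time. The genes are also long, with a median gene length of 6517 bases beside 3701 over all tested genes, and with siSRSF1-3 all genes over 8000 bases had a median of -0.25 while those from 1000 to 2000 bases had 0.33. With the trend on gene length removed, the median of the repair genes was -0.23. With siSRSF1-2 the trend ran the other way, at 0.16 over 8000 bases and -0.09 from 1000 to 2000 bases. With that trend removed, 14 repair genes were higher and 20 lower, with a median of -0.06. All genes of up to 1000 bases followed neither trend, with medians of -0.003 with siSRSF1-3 and 0.08 with siSRSF1-2. FANCE, FANCF and FANCG, lower with siSRSF1-2, are listed at 2692, 2952 and 3614 bases. CHEK2, RBBP8, WRN and ATM, higher with it, are listed at 4493, 5091, 5634 and 23972 bases. Other genes did not keep to this order, though none of them at an adjusted p under 0.05. RAD51AP1, listed at 2558 bases, was above every blank library with siSRSF1-2. BARD1, FANCI and BRCA1, listed at 6067, 7766 and 9187 bases, were below every blank library. The part of gene length in single genes was not tested.

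With OE-LINC01134, 30 of the 34 genes were higher than in blank cells and 4 lower, with a median log2 fold change of 0.36 beside 0.05 over all tested genes, of which 54.9% were higher and 45.1% lower. RBBP8, which encodes the end-resection factor CtIP, rose past the threshold by 1.05 ± 0.14 on the log2 scale (adjusted p = 0.0372), and 0.257% of all genes were called higher (0.45% at any fold change). It was the single gene called here, and none was called lower (0.593% of all genes were). An unadjusted p under 0.05 was reached by 14 higher genes and by 0 lower ones (14% and 12.3% of all genes), and by RBBP8 alone with a log2 fold change above 1 as well (2.45%). The groups did not overlap for 16 higher genes, 47.1% of the 34, beside 16.8% of all genes, and for 0 lower ones, beside 13.8%. Without OE-LINC01134 replicate 2 BRCA2 was called too (2.91% of all genes were called higher), and without both that library and blank replicate 1 BRCA2, XRCC2 and RBBP8 were called (5.1%). The RBBP8 call was lost without blank replicate 2, blank replicate 3, OE-LINC01134 replicate 1 or replicate 3, with voom or a pseudocount of 1, in which its log2 fold change was just under 1, and with no filter, no trend or the replicate block, in which its adjusted p was above 0.05. That adjusted p ranged from 0.000186 to 0.206 over the alternatives.

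The fourth comparison set the 2 siRNAs against each other. With siSRSF1-3, 24 genes were lower than with siSRSF1-2 and 10 higher (51.1% and 48.9% of all genes), with a median log2 difference of -0.32 beside -0.02 over all genes. None passed the threshold in limma or with voom, and 0.0342% of all genes were called higher and 0.0513% lower. Unadjusted p-values under 0.05 were found for 6 higher genes (21.9% of all genes) and 11 lower ones (20.2%), and with a log2 difference beyond 1 for 0 higher (9.01%) and 2 lower ones, ATM and FANCM (7.42%). One fit over all 4 groups called the same 2 genes lower and 0 higher (7.18% and 8.39% of all genes). The groups did not overlap for 14 lower genes and 6 higher ones, beside 27.6% and 27% of all genes. The lowest were ATM (-1.25), FANCM (-1.02) and ATR (-0.91), and the highest RNASEH2B (0.83), CHEK2 (0.70) and RAD51C (0.69). Without siSRSF1-3 replicate 3, ATM, ATR, FANCM and TOP1 were called lower (14.5% of all genes were) and CHEK2 and RNASEH2B higher (16%). Leaving out siSRSF1-3 replicate 2 or any single siSRSF1-2 library gave 0 calls among all tested genes. With the trend on gene length removed the median was -0.15, and relative to the median of all genes it was -0.30 in the deposited scaling.

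**Figure D2:**
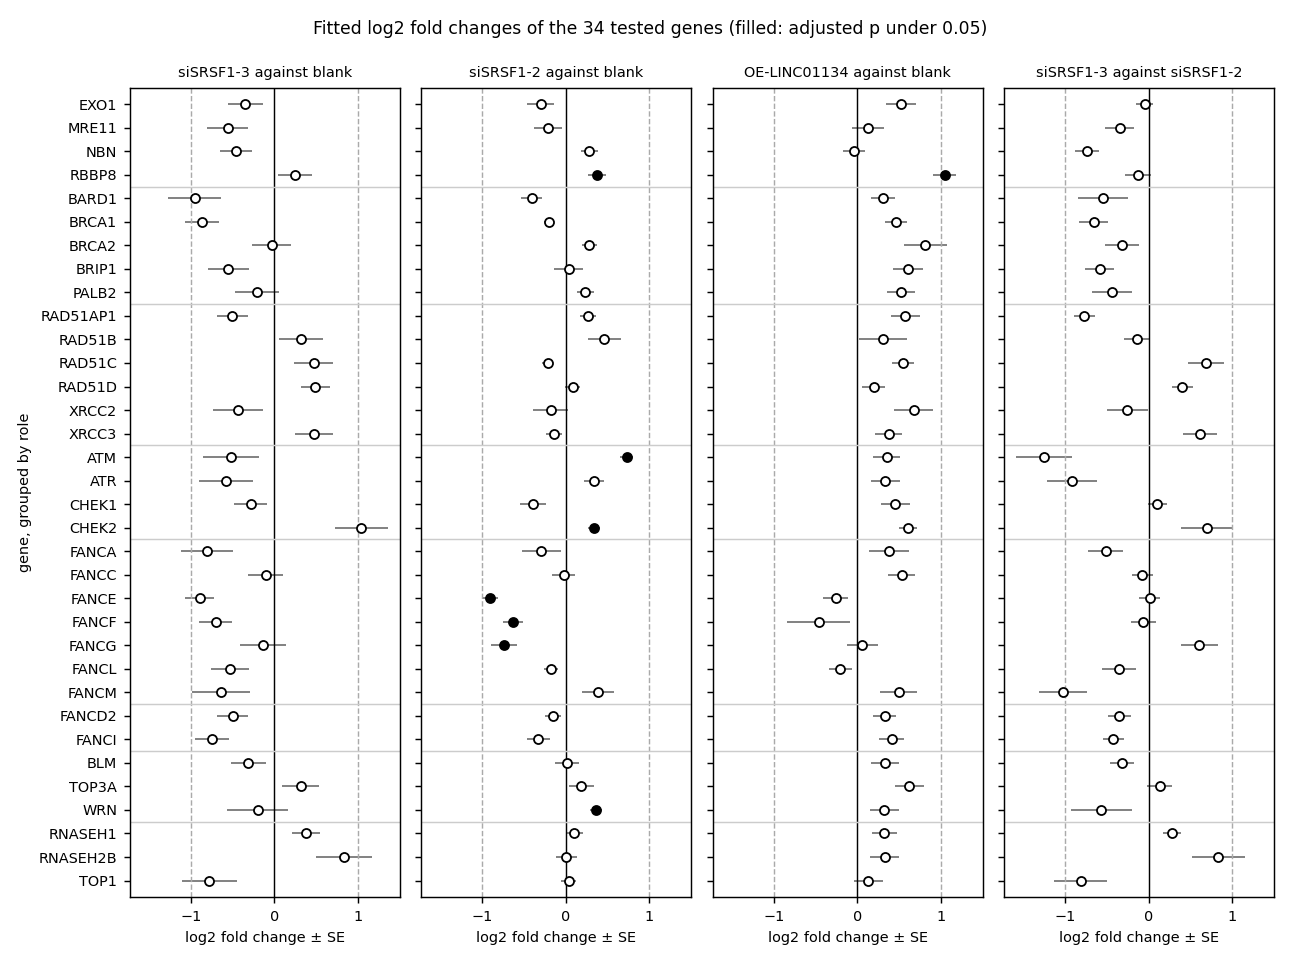
Points are limma log2 fold changes of the 34 tested genes with their SE in the 4 comparisons (3 against 3 libraries each), filled where the adjusted p was under 0.05, with dashed lines at -1 and 1. The siSRSF1-2 panel has 7 filled points, the OE-LINC01134 panel has 1, at RBBP8, and the 2 siSRSF1-3 panels have none and longer error bars.

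The end-resection genes trim break ends. RBBP8 was at 12.7, 9.92 and 10.3 FPKM in the blank libraries, at 14.4, 14.4 and 13.7 with siSRSF1-2, at 11.01, 12.6 and 15.8 with siSRSF1-3 and at 23.9, 20.4 and 23.9 with OE-LINC01134. All 3 overexpressing libraries lay above the other 9, and the siSRSF1-2 libraries lay above the blank ones by a smaller step (log2 fold change 0.37 ± 0.10, adjusted p = 0.0455). The gene (ENSG00000101773) is listed at chromosome 18, 22798261 to 23026488, on the plus strand, in a build that the sources used here do not name, and 3 other genes overlap it on that strand. NBN, the sensor subunit of the MRE11 complex, went from a mean of 10.3 FPKM in blank cells to 12.5 with siSRSF1-2 and 7.51 with siSRSF1-3, and neither group overlapped the blank group. MRE11, the nuclease of that complex, was at 4.70 ± 1.16 FPKM in blank cells and at 3.13 ± 0.604 with siSRSF1-3, its lowest group. EXO1, the exonuclease of long-range resection, was lower than blank in both siRNA groups without overlap, at 8.08 and 7.81 against 10.1 FPKM, and was at 14.4 FPKM with OE-LINC01134, above every blank library. None of these 3 reached an adjusted p under 0.05 in any comparison.

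The BRCA genes encode the complexes that act on the resected ends. All 5 were lower on average with siSRSF1-3 than in blank cells in the deposited scaling, with a median log2 fold change of -0.55, but BRCA2 at -0.04 was near 0, and above 0 without blank replicate 1. BRCA1, a ubiquitin ligase and scaffold, was at 6.98, 6.95 and 6.79 FPKM in the blank libraries, at 6.03, 5.77 and 6.17 with siSRSF1-2, at 3.54, 3.12 and 4.78 with siSRSF1-3 and at 10.02, 8.22 and 10.7 with OE-LINC01134. The 4 groups did not overlap at all, in the order siSRSF1-3, siSRSF1-2, blank, OE-LINC01134. The limma fit gave -0.86 ± 0.20 with siSRSF1-3 (adjusted p = 0.0753) and -1.03 ± 0.14 without its replicate 3 (adjusted p = 0.0117), -0.20 ± 0.06 with siSRSF1-2 (adjusted p = 0.0650) and 0.47 ± 0.13 with OE-LINC01134 (adjusted p = 0.0985). Over the alternatives with a test, the highest adjusted p of BRCA1 with siSRSF1-3 was 0.270. BARD1, the partner of BRCA1 in the ligase, was at 4.57, 3.43 and 3.78 FPKM in blank cells, at 2.91, 2.76 and 3.08 with siSRSF1-2, at 1.38, 1.73 and 3.14 with siSRSF1-3 and at 4.82, 4.59 and 5.14 with OE-LINC01134. Its siRNA libraries all lay below the blank ones, and siSRSF1-3 replicate 3 lay near the siSRSF1-2 values. BRCA1 (ENSG00000012048) is listed on chromosome 17 from 43044295 to 43170245, minus strand, where 3 genes overlap it on its strand and 4 on the other.

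BRCA2, a mediator of strand exchange, was at 2.59, 2.34 and 2.36 FPKM in blank cells, at 3.03, 2.81 and 3.07 with siSRSF1-2, at 2.99, 1.80 and 2.46 with siSRSF1-3 and at 5.38, 2.87 and 5.31 with OE-LINC01134. All 3 overexpressing libraries were above the blank ones, but replicate 2 was within the range of the siRNA libraries, and the log2 fold change of 0.82 ± 0.26 (adjusted p = 0.116) became 1.11 ± 0.10 (adjusted p = 0.00639) without it. Over the alternatives with a test, the highest adjusted p of BRCA2 with OE-LINC01134 was 0.366. BRIP1, a helicase bound by BRCA1, was lower in all siSRSF1-3 libraries than in any blank library, at 3.02 ± 0.636 against 4.49 ± 1.10 FPKM. PALB2, the bridge between BRCA1 and BRCA2, was at 3.45 ± 1.13 FPKM with siSRSF1-3 and overlapped the blank group. With OE-LINC01134 all 5 BRCA genes lay above the blank group without overlap, as did 16.8% of all tested genes. Their median log2 fold change was 0.52, and the smallest adjusted p of the 5 in limma was 0.0985.

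**Figure D3:**
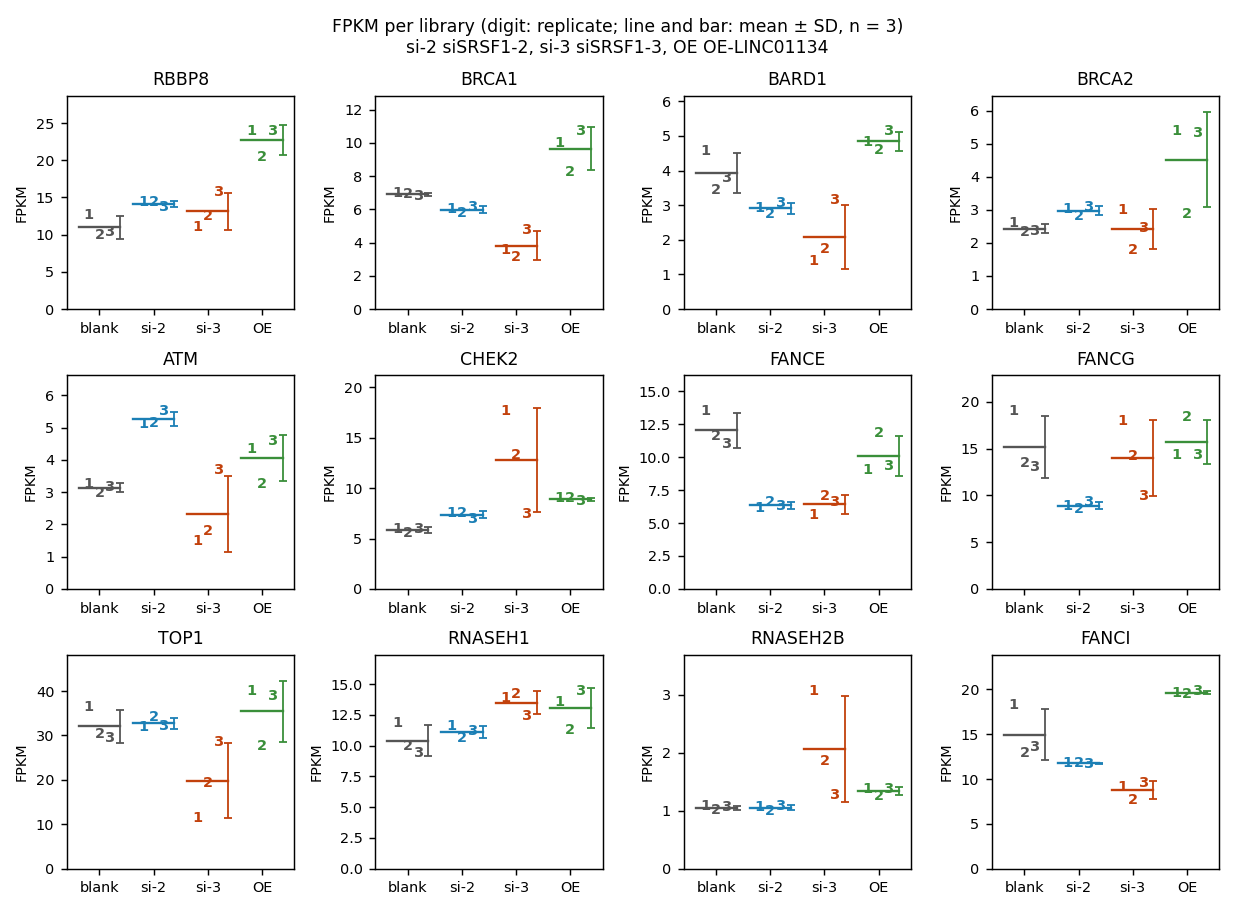
FPKM per library for 12 genes, with digits for replicates 1 to 3 and a line and bar for the mean ± SD of 3 libraries in blank cells, siSRSF1-2 (si-2), siSRSF1-3 (si-3) and OE-LINC01134 (OE), on axes that start at 0. In BRCA1, BARD1, ATM, CHEK2, TOP1 and RNASEH2B, siSRSF1-3 replicate 3 lies nearer to the siSRSF1-2 libraries than replicate 1 does.

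RAD51B, RAD51C, RAD51D, XRCC2, XRCC3 and RAD51AP1 assist strand exchange, and they did not move as a block with siSRSF1-3, where 4 of 6 were higher and 2 lower in the deposited scaling (3 and 3 with FPKM brought to one common total). RAD51C, a subunit shared by a pair of complexes of these proteins, was at 16.4, 15.4 and 16.3 FPKM in blank cells, at 14.5, 13.4 and 13.4 with siSRSF1-2, at 28.9, 23.1 and 16.4 with siSRSF1-3 and at 25.6, 19.6 and 25.5 with OE-LINC01134. Replicate 3 of siSRSF1-3 was at the top of the blank values while the other two were well above them, and no comparison of this gene passed (adjusted p from 0.0511 to 0.219). RAD51D was at 2.55, 2.35 and 2.39 FPKM in blank cells, at 2.71, 2.56 and 2.47 with siSRSF1-2, at 3.77, 3.28 and 3.30 with siSRSF1-3 and at 2.55, 3.07 and 2.79 with OE-LINC01134. All 3 siSRSF1-3 libraries exceeded the other 9, by 0.49 ± 0.17 on the log2 scale over blank (adjusted p = 0.132) and by 0.40 ± 0.13 over siSRSF1-2. The difference between the siRNAs was -0.16 with FPKM brought to one common total, where the median of all genes was -0.57. XRCC3, the partner of RAD51C, was at 4.20 ± 0.991 FPKM with siSRSF1-3 and 2.95 ± 0.178 in blank cells, with overlap. Its siSRSF1-3 replicates 1 and 2 were at 4.84 and 4.69 FPKM, and replicate 3, at 3.06, lay within the blank range. RAD51AP1, which stimulates strand pairing, had means of 17.7 FPKM in blank cells, 21.2 with siSRSF1-2, 12.5 with siSRSF1-3 and 26.7 with OE-LINC01134, and none of the other groups overlapped the blank one.

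RAD51B was at 1.33, 1.71 and 2.34 FPKM in blank cells, at 2.51, 2.44 and 2.39 with siSRSF1-2, at 2.20, 1.90 and 2.57 with siSRSF1-3 and at 2.70, 1.54 and 2.51 with OE-LINC01134. The siSRSF1-2 libraries lay just above the widely spread blank ones (0.46 ± 0.20, adjusted p = 0.140), and the other groups overlapped them. XRCC2 was at 4.96, 2.89 and 3.62 FPKM in blank cells, at 3.68, 2.88 and 3.32 with siSRSF1-2, at 2.81, 1.96 and 3.69 with siSRSF1-3 and at 6.61, 4.85 and 6.81 with OE-LINC01134. Blank replicate 1 overlapped the overexpressing group, whose log2 fold change of 0.68 ± 0.23 (adjusted p = 0.138) was 1.03 ± 0.12 (adjusted p = 0.00278) without blank replicate 1 and OE-LINC01134 replicate 2. The highest adjusted p of XRCC2 in that comparison over the alternatives with a test was 0.397.

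The checkpoint kinases differed in direction. ATM, the kinase that signals double-strand breaks, was at 3.26, 2.98 and 3.16 FPKM in blank cells, at 5.11, 5.16 and 5.52 with siSRSF1-2, at 1.49, 1.80 and 3.68 with siSRSF1-3 and at 4.35, 3.25 and 4.59 with OE-LINC01134. The siSRSF1-2 libraries were above all the others, by 0.73 ± 0.08 on the log2 scale over blank (adjusted p = 0.00278), and siSRSF1-3 replicates 1 and 2 were below all the others. Between the siRNAs the log2 difference was -1.25 ± 0.33 (adjusted p = 0.0801), or -1.63 ± 0.11 without siSRSF1-3 replicate 3 (adjusted p = 0.00135). Over the alternatives with a test, its highest adjusted p between the siRNAs was 0.240. ATM lies on chromosome 11 from 108222484 to 108369102, with a listed gene length of 23972 bases. ATR, the kinase that senses single-stranded DNA at stalled forks, was at 2.12, 1.77 and 1.69 FPKM in blank cells, at 2.23, 2.50 and 2.35 with siSRSF1-2, at 0.857, 1.04 and 1.93 with siSRSF1-3 and at 2.68, 2.10 and 2.34 with OE-LINC01134. Its order was that of ATM in the siRNA groups, with a log2 difference between the siRNAs of -0.91 ± 0.30 (adjusted p = 0.0896).

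CHEK2, the effector kinase downstream of ATM, was at 5.996, 5.51 and 5.98 FPKM in blank cells, at 7.57, 7.58 and 6.99 with siSRSF1-2, at 17.7, 13.3 and 7.44 with siSRSF1-3 and at 9.02, 8.99 and 8.74 with OE-LINC01134. Every treated library exceeded every blank library, and the siSRSF1-3 group was the most spread. The log2 fold changes were 0.34 ± 0.07 with siSRSF1-2 (adjusted p = 0.0220), 1.04 ± 0.31 with siSRSF1-3 (adjusted p = 0.106) and 0.61 ± 0.11 with OE-LINC01134 (adjusted p = 0.0513). CHEK1, the effector kinase downstream of ATR, was at 6.70, 4.69 and 4.70 FPKM in blank cells, at 3.91, 4.31 and 3.83 with siSRSF1-2, at 4.43, 4.37 and 4.15 with siSRSF1-3 and at 7.67, 6.65 and 7.55 with OE-LINC01134. Both siRNA groups lay below the blank group, replicates 2 and 3 of which were near them, and no difference of CHEK1 passed.

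The Fanconi core genes build the ubiquitin ligase that marks cross-linked DNA, and most of them were lower with the siRNAs. In the siSRSF1-2 group 6 of the 7 were lower than in blank cells and with siSRSF1-3 all 7 were, with medians of -0.29 and -0.64. Without blank replicate 1, FANCC was above 0 in both, and so was FANCG with siSRSF1-3 (0.04, or 0.09 without siSRSF1-3 replicate 3 and 0.27 without both libraries), and FANCC was above 0 with siSRSF1-2 in both of the other scalings. In those scalings the median of all genes with siSRSF1-2 was above 0 too, at 0.15 and 0.06. FANCE, which ties the core to its substrate FANCD2, was at 13.5, 11.6 and 10.98 FPKM in blank cells, at 6.12, 6.63 and 6.29 with siSRSF1-2, at 5.61, 7.06 and 6.61 with siSRSF1-3 and at 9.05, 11.8 and 9.37 with OE-LINC01134. The siRNA groups overlapped each other and lay well below every other library, with log2 fold changes of -0.91 ± 0.09 (adjusted p = 0.00269) and -0.90 ± 0.18 (adjusted p = 0.0568). Between the siRNAs FANCE differed by 0.01 ± 0.13 in the deposited scaling and by -0.56 with FPKM brought to one common total. The median of all genes between the siRNAs was -0.02 in the deposited scaling and -0.57 with the common total, so FANCE stayed near it in both. It is listed on chromosome 6 from 35452356 to 35467103, plus strand, with no other gene over it. FANCF, an adaptor of the core, was at 4.04, 3.74 and 3.19 FPKM in blank cells, at 2.52, 2.21 and 2.19 with siSRSF1-2, at 2.09, 2.51 and 2.02 with siSRSF1-3 and at 1.71, 4.92 and 2.11 with OE-LINC01134. Both siRNA groups lay below the blank group, by 0.64 ± 0.12 on the log2 scale with siSRSF1-2 (adjusted p = 0.0132), and OE-LINC01134 replicate 2 stood above its 2 companions.

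FANCG, a core subunit that binds FANCA, was at 19.02, 13.5 and 13.01 FPKM in blank cells, at 8.85, 8.59 and 9.28 with siSRSF1-2, at 17.9, 14.2 and 9.90 with siSRSF1-3 and at 14.4, 18.4 and 14.3 with OE-LINC01134. It was lower with siSRSF1-2 (-0.74 ± 0.15, adjusted p = 0.0177), and of the siSRSF1-3 libraries replicate 3 was nearest to that group. FANCL, the ligase subunit, was at 9.79, 8.26 and 8.73 FPKM in blank cells, at 7.49, 8.13 and 7.95 with siSRSF1-2, at 4.59, 6.39 and 7.84 with siSRSF1-3 and at 7.47, 8.83 and 6.99 with OE-LINC01134. FANCM, the translocase that anchors the core on DNA, was at 2.64, 1.77 and 1.58 FPKM in blank cells, at 2.54, 2.54 and 2.66 with siSRSF1-2, at 0.891, 1.04 and 1.93 with siSRSF1-3 and at 2.87, 2.51 and 3.00 with OE-LINC01134. Its siSRSF1-3 libraries were all below the siSRSF1-2 ones (-1.02 ± 0.29, adjusted p = 0.0820). FANCA, the partner of FANCG, ranged from 2.64 to 4.54 FPKM with siSRSF1-3, below every blank library, and FANCC, another core subunit, was between 1.81 and 2.05 FPKM in all 6 siRNA libraries and between 3.00 and 3.11 with OE-LINC01134.

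FANCD2 and FANCI form the clamp that the core complex modifies. FANCD2 was at 5.16, 4.47 and 4.26 FPKM in blank cells, at 3.97, 4.07 and 4.40 with siSRSF1-2, at 3.23, 2.87 and 3.63 with siSRSF1-3 and at 5.91, 5.22 and 6.36 with OE-LINC01134. FANCI was at 18.2, 12.95 and 13.6 FPKM in blank cells, at 11.7, 11.8 and 11.7 with siSRSF1-2, at 9.08, 7.63 and 9.60 with siSRSF1-3 and at 19.6, 19.5 and 19.8 with OE-LINC01134. In both genes all siSRSF1-3 libraries lay below every siSRSF1-2 library and every blank library, and all OE-LINC01134 libraries above. The adjusted p ranged from 0.0835 to 0.298 over the 8 fits. These values count reads over the whole gene, so a change in the isoforms of FANCI would not be seen in them.

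The dissolution genes separate joined DNA molecules. WRN, the helicase lost in Werner syndrome, was between 6.19 and 6.38 FPKM with siSRSF1-2, above blank cells at 4.60 to 5.16 (0.36 ± 0.07, adjusted p = 0.0164), and was spread from 2.39 to 6.77 with siSRSF1-3. BLM, the Bloom syndrome helicase, was at 4.50 ± 0.861 FPKM in blank cells and at 3.58 ± 0.479 with siSRSF1-3, with overlap. TOP3A, the topoisomerase that works with BLM, was at 11.9 ± 1.15 FPKM with OE-LINC01134 and 7.75 ± 1.67 in blank cells (0.62 ± 0.17, adjusted p = 0.0965).

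Of the tested R-loop genes, RNASEH1 and RNASEH2B were higher on average with siSRSF1-3 in the deposited scaling and TOP1 was lower. None of them passed the threshold over all libraries. RNASEH1, a single-chain RNase H, was at 11.8, 10.01 and 9.39 FPKM in blank cells, at 11.6, 10.6 and 11.2 with siSRSF1-2, at 13.9, 14.2 and 12.4 with siSRSF1-3 and at 13.5, 11.2 and 14.4 with OE-LINC01134. The siSRSF1-3 libraries lay above the blank ones by 0.38 ± 0.17 (adjusted p = 0.190), a difference that was -0.07 with FPKM brought to one common total. In that scaling the median of all genes was -0.43. RNASEH2B, a structural subunit of RNase H2, was at 1.08, 1.004 and 1.06 FPKM in blank cells, at 1.06, 1.001 and 1.09 with siSRSF1-2, at 3.06, 1.86 and 1.28 with siSRSF1-3 and at 1.38, 1.26 and 1.38 with OE-LINC01134. Blank and siSRSF1-2 cells differed by 0.00 ± 0.13, and each siSRSF1-3 library was above them, by 0.83 ± 0.33 (adjusted p = 0.160), or by 1.12 ± 0.27 without replicate 3 (adjusted p = 0.0272). With siSRSF1-3 against blank, the highest adjusted p of RNASEH2B over the alternatives with a test was 0.408.

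TOP1 was at 36.3, 30.4 and 29.5 FPKM in blank cells, at 31.8, 34.1 and 32.2 with siSRSF1-2, at 11.5, 19.4 and 28.5 with siSRSF1-3 and at 40.0, 27.6 and 38.8 with OE-LINC01134. Replicates 1 and 2 of siSRSF1-3 were below every other library, replicate 3 was near the blank values, and the log2 fold change was -0.78 ± 0.33 (adjusted p = 0.175), or -1.09 ± 0.25 without replicate 3 (adjusted p = 0.0260). With siSRSF1-3 against blank, the highest adjusted p of TOP1 over the alternatives with a test was 0.352. RNASEH2A, the catalytic subunit of RNase H2, was at 0.545, 0.405 and 0.268 FPKM in blank cells, at 0.267, 0.372 and 0.271 with siSRSF1-2, at 0.994, 0.550 and 0.176 with siSRSF1-3 and at 0.303, 0.572 and 0.202 with OE-LINC01134. Its siSRSF1-3 libraries held both the highest and the lowest of the 12 values, so nothing could be read from the group mean at this depth.

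For context, 7 other lists of related genes were set beside these 36. With siSRSF1-2, all 25 S phase and proliferation markers were lower than in blank cells, with a median log2 fold change of -0.72. Past the threshold fell 5 of the 25, beside 2.73% of all genes called lower. They were CDT1 (-1.27) and CDC6 (-1.15), which license replication origins, and RRM2 (-1.05), which makes deoxynucleotides. The others were CCNE2 (-1.58), a cyclin of S phase entry, and GINS2 (-1.09), part of the replicative helicase. RRM2 and GINS2 are named after their values were seen. Without blank replicate 1, 23 were lower with a median of -0.49, and CDT1 and CCNE2 were called (3.74% of all genes were called lower). The summed level of these markers was 485 to 497 FPKM with siSRSF1-2, 585 to 763 with siSRSF1-3, 957 to 1037 with OE-LINC01134 and 635 to 1120 in blank cells, where replicate 1 was the highest, and none of the 25 was at 0 in any library. With siSRSF1-3, 20 were lower with a median of -0.49 (14 lower and -0.16 without blank replicate 1), and with OE-LINC01134 20 were higher with a median of 0.33 (23 higher and 0.60 without blank replicate 1). Against blank, the markers lay on the same side as the median of the repair genes in the OE-LINC01134 and siSRSF1-3 groups, while with siSRSF1-2 the markers were lower and the median of the repair genes was 0.01. Between the siRNAs they lay on opposite sides. With siSRSF1-3 against siSRSF1-2, 17 markers were higher and 8 lower, with a median of 0.37. Of the repair genes 10 were higher and 24 lower, with a median of -0.32 (48.9% and 51.1% of all tested genes). The part of the markers in the repair gene results was not tested.

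Among the 27 tested other homologous recombination genes, RMI2, a partner of BLM and TOP3A, fell with siSRSF1-2 (-1.03, from 6.65 to 3.21 FPKM), as did CENPX (-1.16), which binds FANCM, of the 15 other Fanconi genes, ALYREF (-1.12), an mRNA export factor, of the 25 other R-loop genes, and CDC25A (-1.01), a phosphatase that checkpoint kinases mark for destruction, of the 31 break signalling genes. These 4 were past the threshold, beside 2.73% of all genes called lower. Without blank replicate 1 only RMI2 of these 4 was called (3.74% of all genes were called lower). Medians of these lists with siSRSF1-2 were -0.15, 0.06, 0.05 and -0.11, with 17, 6, 10 and 20 genes lower. No gene of the 7 lists was called with siSRSF1-3 or OE-LINC01134 in the limma fits over all libraries, but some were with libraries left out. Without siSRSF1-3 replicate 3, 4 of the other homologous recombination genes were called higher and 6 lower with siSRSF1-3, 4 and 1 of the Fanconi genes, 1 and 5 of the R-loop genes, 2 and 3 of the break signalling genes, 1 and 0 of the end joining genes, 1 and 5 of the S phase markers and 2 and 1 of the p53 targets (12.5% and 11.4% of all genes were). The lowest log2 fold changes among them were those of MCM2 (-2.89), a subunit of the replicative helicase, and CLSPN (-2.87), a checkpoint adaptor, and the highest that of FAAP20 (2.08), a Fanconi core partner. With OE-LINC01134, POLQ (1.17), the polymerase of an alternative end joining route, and MCM7 (1.04), CCNA2 (1.01) and E2F2 (1.07) of the S phase markers were called higher without blank replicate 1 (1.81% of all genes were). Without OE-LINC01134 replicate 2, POLQ (1.28), E2F2 (1.05), REV3L (1.07), PPM1D (1.05) and BTG2 (1.18) were called higher (2.91%). These genes are named after their values were seen. Over all libraries, with siSRSF1-3 the medians of the first 4 lists were -0.02, -0.07, -0.17 and -0.04 (-0.13, 0.00, -0.16 and 0.13 without siSRSF1-3 replicate 3), and with OE-LINC01134 they were 0.30, 0.30, 0.14 and 0.26. The 12 tested end joining genes had medians of -0.05, -0.02 and 0.24 with siSRSF1-2, siSRSF1-3 and OE-LINC01134, and the 20 p53 and DNA damage response targets had 0.00, 0.20 and 0.32, with 0 called in each by limma. At an unadjusted p under 0.05, siSRSF1-2 gave 4 higher and 1 lower of the end joining genes and 3 higher and 4 lower of the p53 targets, beside 20.6% and 19.7% of all genes. Of the 25 S phase markers, 0 were higher and 20 lower by that rule with siSRSF1-2. In these 7 lists 0 to 5 genes were higher and 0 to 9 lower at an unadjusted p under 0.05 with siSRSF1-3 (15.2% and 13.6% of all genes), and 3 to 11 were higher and 0 to 3 lower with OE-LINC01134 (14% and 12.3%). The lists differ in size. The largest counts were 9 of 25 S phase markers lower with siSRSF1-3 and 11 of 27 other homologous recombination genes higher with OE-LINC01134.

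**Figure D4:**
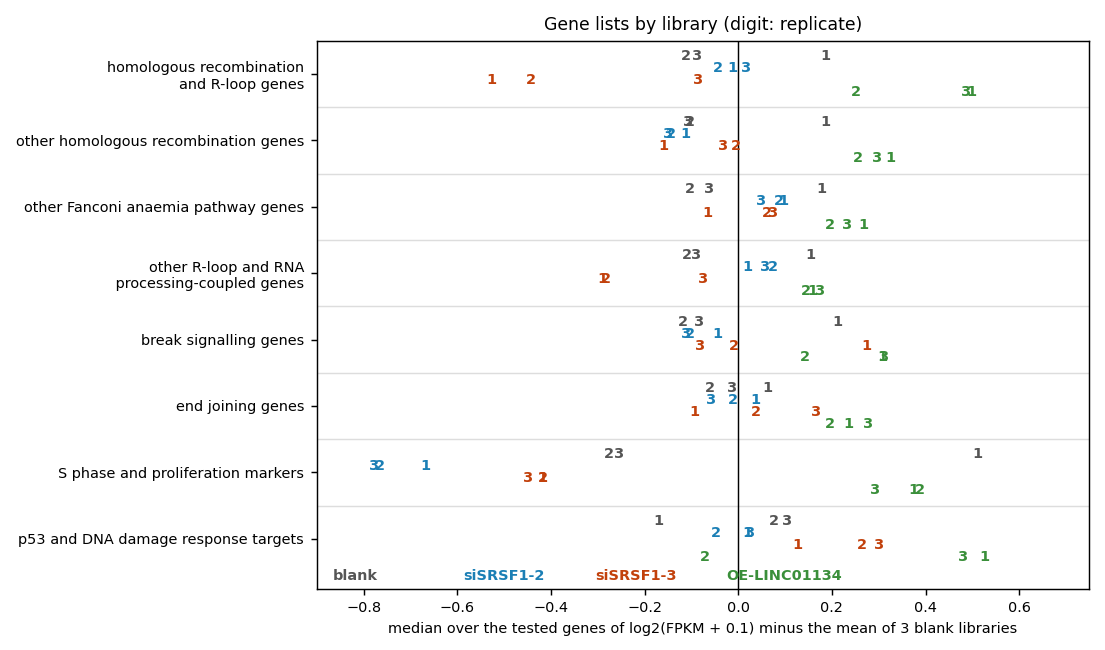
Each digit is the median over the tested genes of a list of log2(FPKM + 0.1) minus the mean of the 3 blank libraries, in the library of that replicate number, colored by group. The repair genes of siSRSF1-3 replicates 1 and 2 stand at -0.53 and -0.44 and replicate 3 at -0.09, those of OE-LINC01134 at 0.25 to 0.50, and the S phase markers of blank replicate 1 at 0.51 beside -0.28 and -0.25 in the other blank libraries.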

How the data were processed

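The table the authors deposited holds FPKM per gene, with gene lengths, coordinates and full names. Per the labels, the organism is mouse and the build GRCm38 (mm10), but all gene identifiers are human, so the samples were treated as human. The aligner, counter and human build are not given in the sources used here. The columns of the siRNA libraries carry ASF, an older name of SRSF1. FPKM times gene length gave whole reads for 100% of values above 0 (tolerance 0.01). The library size these values imply was 0.712 and 0.888 times the reads on genes in siSRSF1-3 replicates 1 and 2. It was 0.990 to 1.09 times them in the other libraries. A median-of-ratios factor is the median ratio of a library's values to their geometric mean over libraries. It was 1.01 in every library, so the deposited FPKM were already on that scale rather than scaled by reads alone.

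The fits used limma 3.58.1 (lmFit, eBayes with trend, R 4.3.3) on log2(FPKM + 0.1) for each pair of groups over 17538 genes with a mean of at least 0.5 FPKM, and p-values were adjusted by Benjamini-Hochberg. A fold change on this scale understates that of low genes. Calls needed an adjusted p under 0.05 and a log2 fold change above 1 or below -1. The 3 comparisons with blank cells share the blank libraries. The fit was tested on simulated data with one spread shared by all libraries and none that stood apart. That test does not cover the spread of the siSRSF1-3 libraries. Members and lists were chosen with earlier results of these data known. Values per library are given for a fixed set (BRCA1, BRCA2, BARD1, ATM, ATR, CHEK1, FANCI, FANCD2, RNASEH1, RNASEH2A, RNASEH2B and TOP1), for genes past the threshold and for the 3 highest and 3 lowest log2 fold changes of each comparison. One gene of the wider lists is not reported here. Alternatives were pseudocounts of 1 and 0.01, no filter or a mean of 1 FPKM, other scalings, voom on the recovered reads (with factors from a trimmed mean of M values), no trend, one fit over 4 groups, the unadjusted p, any fold, a replicate block, gene length removed by loess (span 0.5) and each library left out. Pairs of libraries left out together were chosen after seeing the data. Promoters and proteins were not used here.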

Additional observations from a re-analysis of the deposited data

How the results depend on the processing

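Over the alternatives, 200 counts of called genes and medians were the same as or close to those of the main fit, 14 counts were higher, 9 were lower and 7 medians of the repair genes moved by more than the spread between replicates. Many of the 200 were counts of 0 in both fits, and the median-of-ratios alternative divided every library by the same factor. The 200 are therefore no measure of how stable the results are. With siSRSF1-3 against blank, one fit over 4 groups and the unadjusted p each called 1 gene higher, leaving out siSRSF1-3 replicate 3 and blank replicate 1 called 1 higher and 2 lower, and leaving out each library in turn gave 0 to 2 higher, 0 to 3 lower and medians from -0.56 to -0.24. The median was -0.83 with FPKM rescaled to the same sum and -0.65 with FPKM scaled to own read totals, where the median of all genes was also lower, at -0.43 and -0.26. With siSRSF1-2 against blank, no minimum fold change called 4 higher and 3 lower, the median was 0.13 with FPKM rescaled to the same sum (0.15 over all genes), and it ranged from -0.08 to 0.11 as each library was left out. With OE-LINC01134 against blank, 0 genes were called with a pseudocount of 1, no filter, voom, no trend or the replicate block, each library left out gave 0 to 2 with medians from 0.32 to 0.50, and leaving out OE-LINC01134 replicate 2 and blank replicate 1 gave 3 with a median of 0.53. With siSRSF1-3 against siSRSF1-2, one fit over 4 groups and the unadjusted p called 2 lower, each library left out gave 0 to 2 higher and 0 to 4 lower with medians from -0.42 to -0.20, and the median was -0.88 with FPKM rescaled to the same sum, -0.61 with own read totals and -0.15 with the trend on gene length removed. The median of all genes was also lower with the same sum and with own read totals, at -0.57 and -0.31. The cause of these shifts was not tested. Deviations from the group means correlated at -0.08 to 0.21 between libraries with the same replicate number. Libraries with different numbers were not compared in this way, so whether the numbers pair the libraries could not be told. The replicate block called 0 of the repair genes higher and 0 lower in every comparison. Over all tested genes it called 300 higher and 381 lower with siSRSF1-2 against blank and 1 and 3 with OE-LINC01134. With 3 libraries per group, differences within the spread of siSRSF1-3 could not be resolved.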
